A study of Mus musculus with 120 samples.

Results

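The experiment described here is the induction of Rcan1, the gene formerly called Dscr1, for 24 hours in mouse embryonic stem (mES) cells. It comprises 6 of the 120 arrays of a study that overexpressed genes of human chromosome 21 singly, most of them as the mouse ortholog. The arrays were chosen by the gene and the time in their labels: 3 induced clones and the same 3 clones uninduced. The cells are of the EB3 line, a mouse embryonic stem line kept without feeder cells in medium with leukemia inhibitory factor. Each clone carries the mouse Rcan1 coding sequence with a C-terminal FLAG tag, placed at the ROSA26 locus under a promoter that tetracycline (Tc) keeps off. The induced arrays were made 24 hours after Tc was withdrawn and the uninduced ones at 0 hours, with Tc at 1 µg/ml. The endogenous Rcan1 gene is intact in both states, the transgene lacks the untranslated ends, and the karyotype was examined in 1 clone for a gene, so the clones were not all checked.

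Calcineurin is a phosphatase that calcium and calmodulin switch on. It removes phosphates from the NFAT transcription factors, which then enter the nucleus, and kinases such as DYRK1A and GSK3 put the phosphates back. Rcan1 binds calcineurin and restrains it, and its own internal promoter is an NFAT target in many cell types, which makes a feedback loop. Rcan1 and Dyrk1a are both present in an extra copy in Down syndrome.

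The primers bound the Rcan1 sequence that was put into the cells, and are printed for that reason. Capitals mark the cloning sites, AscI in the forward and PacI in the reverse primer, and the start codon atg follows the first site directly.

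Forward cloning primer: GGCGCGCCatgcattttagggactttagct
Reverse cloning primer: TTAATTAAgctgaggtggatgggtgtgtac

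Where a gene has isoforms, the methods describe the choice of the coding sequence with the greatest length. The study lists 1 RefSeq transcript as the Rcan1 isoform it cloned, and whether these primers match that transcript was not checked here. In RefSeq (GRCm38.p6) the gene (gene ID 54720) lies on chromosome 16 between 92391951 and 92466169, on the minus strand, and the promoter table holds an upstream and an internal start. The core of the NFAT site, GGAAA on either strand, occurs 3 times in the 300 bases around the internal start and not in those around the upstream start. At least 1 match is found in 61.3% of the 32851 promoters of that table and at least 3 in 9.42%. The matches are shown as letters that fit the NFAT core, and whether NFAT binds there was not tested. Capitals mark the motif, which stands on the opposite strand where the capitals read TTTCC, and each line reads 5′ to 3′ along the gene.

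Rcan1 at chr16:92400288-92400317: accttagcgcctTTTCCaccctcccgagca
Rcan1 at chr16:92400254-92400283: taattagcatagGGAAAatgactaaggtgt
Rcan1 at chr16:92400224-92400253: tgacgtcacctcTTTCCagtagaaatttac

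The values are log2 levels of probe sets, and the 6 arrays were normalized together by the authors. Their medians ran from 4.97 to 5.02 and the lowest correlation between any 2 of them was 0.990 over 45101 probe sets. The markers of the labelled cell type were high in both states: the pluripotency factor Pou5f1 had 12.98, 13.16 and 13.05 in the induced clones 1, 2 and 3, against 12.91, 13.17 and 12.99 in the uninduced ones, and Nanog, Sox2 and Zfp42 lay between 11.76 and 12.67 in all 6. The fibroblast collagen Col1a1 lay between 4.01 and 4.29, under the median of its arrays. Other genes of the fibroblast list did not: 6 of its 13 measured genes lay at or above the median of all probe sets, the highest at 11.29. Clone 2 stood apart in its response. Over all probe sets its differences (induced minus uninduced) correlated with those of clones 1 and 3 at −0.26 and −0.35, while clones 1 and 3 correlated at 0.28. The 18S ribosomal RNA control probe sets moved with this: their mean level was 6.08, 7.29 and 6.03 in induced clones 1, 2 and 3, against 6.69, 5.69 and 7.39 in the uninduced ones, so that it was higher on induction in clone 2 and lower in the others. The part of this signal in the results was not tested. The counts of each list are also given without clone 2 where they change. That count was added, and the genes named for it chosen, after the data were seen. It rests on clones 1 and 3 alone, and leaving out the clone that ran against them favours their agreement. In both of them the 18S signal was lower on induction, so in that fit a change with induction and a change with this signal cannot be told apart.

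One Rcan1 probe set carried the response. Probe set 1416601_a_at had 8.52, 8.90 and 9.23 in induced clones 1, 2 and 3, against 6.46, 7.20 and 6.57 in the uninduced clones. The states did not overlap, and every induced clone lay above every uninduced one by more than 1 log2 unit. The mean level was higher by 2.14 on the log2 scale, a 4.40-fold difference (95% interval 3.27 to 5.92 in the 6-array fit), with 4.15-fold, 3.25-fold and 6.33-fold in clones 1, 2 and 3. It was the largest difference of all 45101 probe sets, and the next was 0.74 for Slc16a3, a lactate transporter. The fit of the 6 arrays alone, with limma and the clone as a block, gave a standard error of 0.18, a p of 1.08e-05 and an adjusted p of 0.486, which does not pass the threshold of 0.05. Without clone 2 the difference was 2.36 and the adjusted p 0.0055. With the spread of clone differences shared over the 19 experiments of the Mouse 430_2 array, the limma adjusted p was 4.14e-13.

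The other Rcan1 probe set did not show the induction. Probe set 1416600_a_at had 7.86, 8.05 and 7.95 in the induced clones, against 7.84, 8.24 and 7.91 in the uninduced clones, and the states overlapped. The difference was −0.04 (95% interval of the fold 0.83 to 1.14). In the uninduced cells both probe sets were above the median of all probe sets, at the 69.5th percentile for 1416601_a_at and the 80.4th for 1416600_a_at. Which parts of the Rcan1 transcripts each probe set reads is not given in the sources used here.

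**Figure D1:**
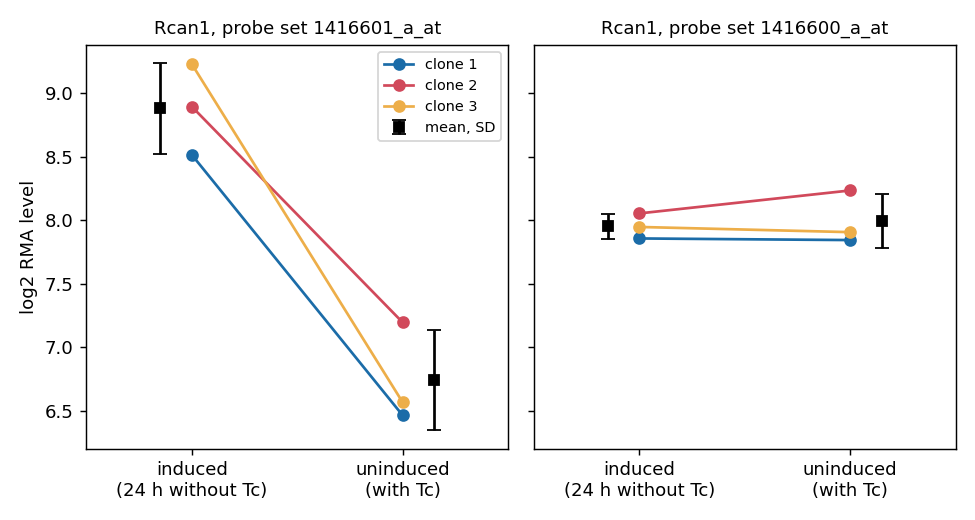
Levels (log2 RMA, vertical axis) of the 2 Rcan1 probe sets in the induced and uninduced arrays of each clone; lines join the arrays of a clone, and squares with bars are the mean and SD of 3 clones. The induced arrays sit at 8.52 to 9.23 and the uninduced at 6.46 to 7.20 for 1416601_a_at, while for 1416600_a_at both states lie between 7.84 and 8.24.

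The difference of Rcan1 was then set against the other inductions. In the Dscr1 clones 1416601_a_at moved by 2.05, 1.70 and 2.66, and in the other 18 experiments on this array the mean differences ran from −0.34 (Gabpa) to 0.28 (Sim2), with single clones between −1.08 and 0.50. The contrast of the Dscr1 clones with the mean of the other 18 was 2.11 (standard error 0.16, limma adjusted p = 1.78e-12). The clones of Dyrk1a, whose product acts on the same NFAT factors, gave 0.09. In the Runx1 clones, measured on the Mouse 430A_2 array, it was 0.01. For 1416600_a_at the Dscr1 mean of −0.04 stood against −0.25 (Snf1lk) to 0.55 (Pfkl) in the others. The uninduced level of 1416601_a_at in the Dscr1 clones ranked 8 of 19 from the highest, as a description only, since each experiment was normalized on its own. The other 18 experiments were not all induced for 24 hours: Hunk, Ripk4 and Sim2 were taken at 39 hours, and Aire and Pdxk at 48. All values given for the 18 mix these times. With only the experiments of 24 hours, the contrast for 1416601_a_at was 2.18 (limma adjusted p = 7.44e-10).

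**Figure D2:**
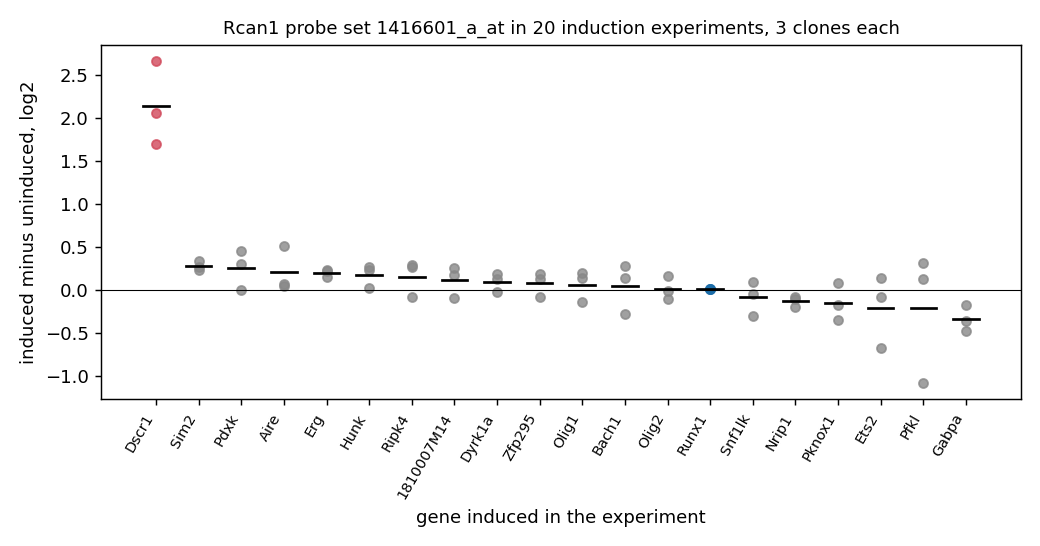
Difference of Rcan1 probe set 1416601_a_at (induced minus uninduced, log2, vertical axis) in 20 experiments named for the induced gene; points are the 3 clones, bars their mean, and the blue points are the Runx1 clones on the smaller array. The Dscr1 clones lie at 1.70 to 2.66 and every other clone at or below 0.50.

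Across the genome, the fits given here called at most 1 probe set, Rcan1 1416601_a_at. The 6-array fit did not call even this probe set (limma adjusted p = 0.486), so its count of 0 says little about smaller changes. In the limma fit of the 6 arrays 0 of 45101 probe sets (0%) had an adjusted p under 0.05, and 1011 (2.24%) had an unadjusted p under 0.05, of which 563 (1.25%) were higher on induction and 448 (0.993%) lower. The unadjusted share lay below the 5% that the threshold gives where nothing changes. A Bayesian regularized test, of the kind the study used, called 1 probe set, Rcan1 1416601_a_at, and the same test between states without pairing also called 1. With the spread shared over experiments 1 of 45100 (0.00222%) was called, Rcan1 again, and 1 of 45100 (0.00222%) differed from the other inductions. At an unadjusted p under 0.05 those fits held 1589 (3.52%) and 1799 (3.99%). Of all probe sets, 4687 (10.4%) were higher in all 3 clones and 4175 (9.26%) lower in all 3. In 1965 (4.36%) the states did not overlap.

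The precision limits what could have been seen, and the interval given here is that of 1 probe set without adjustment. The median standard error in the 6-array fit was 0.10 and the median half-width of the 95% interval 0.24 on the log2 scale, and the percentiles 1 and 99 of the mean differences were −0.25 and 0.27. Sizes of 0.5 or more were seen in 16 probe sets. The Dscr1 clones differed among themselves more than most: the median SD of the 3 clone differences was 0.17, which ranked 16 of 19 from the smallest. Without clone 2 the probe sets at an unadjusted p under 0.05 numbered 5583 (12.4%), with 3269 (7.25%) higher and 2314 (5.13%) lower, and 713 of the 1011 were among them, while 1 probe set, Rcan1, passed the adjusted threshold.

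**Figure D3:**
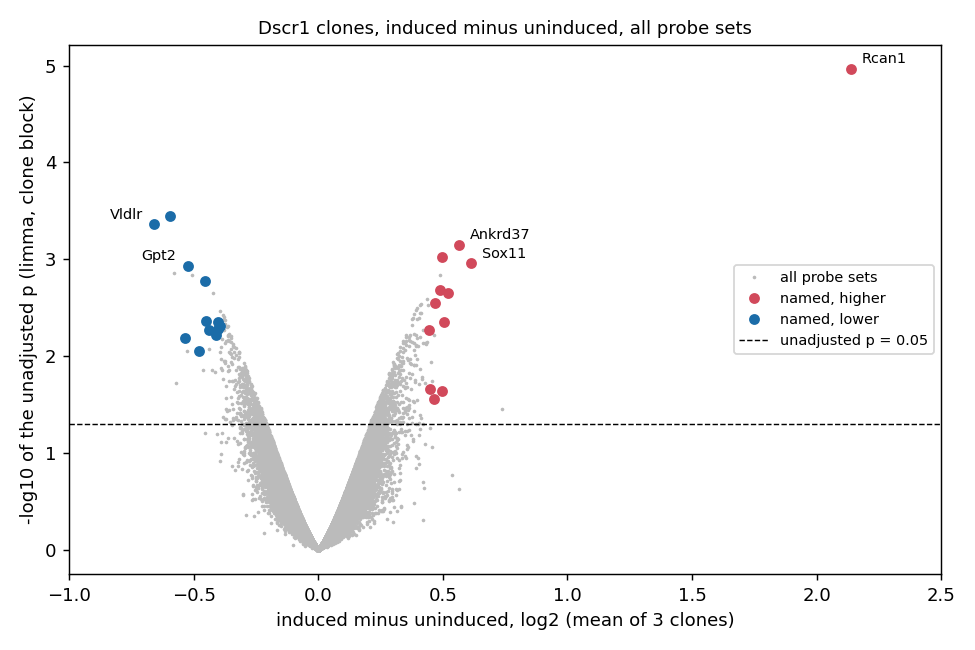
Mean difference of the 3 clones (induced minus uninduced, log2, horizontal axis) against −log10 of the unadjusted limma p (vertical axis) for the 45101 probe sets (grey), with the named genes higher (red) or lower (blue) on induction. Rcan1 stands alone at 2.14, and the named genes besides it lie between −0.66 and 0.61.

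None of the genes that encode the machinery Rcan1 acts on had an unadjusted p under 0.05 at its brightest probe set, and without clone 2 the NFAT factor Nfat5 did, at 0.39. Calcineurin has catalytic subunits, encoded by Ppp3ca, Ppp3cb and Ppp3cc, and a regulatory subunit, encoded in these cells by Ppp3r1. Ppp3cb had 9.12 in the induced and 9.10 in the uninduced clones on average, and Ppp3r1 9.44 and 9.40. The differences of the 4 measured subunits ran from −0.19 (Ppp3cc) to 0.10 (Ppp3ca), with 0 of 4 at an unadjusted p under 0.05. The NFAT factors Nfatc1, Nfatc2, Nfatc3 and Nfatc4 differed by 0.03, 0.05, −0.07 and −0.03, and Nfat5, the family member that calcineurin does not control, by 0.17 (clones 0.45, −0.28 and 0.33). The paralogs Rcan2 and Rcan3 differed by 0.00 and −0.10.

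Of 16 listed partners and opponents of calcineurin 14 were measured, and 0 had an unadjusted p under 0.05 at their brightest probe set. Among them the NFAT kinases Gsk3b and Dyrk2 differed by −0.11 and 0.14, and the calcineurin inhibitor Cabin1 by 0.01. Over the 26 genes of these lists and the Rcan family, 82 probe sets other than Rcan1 1416601_a_at lay between −0.22 and 0.24. Of these 1 had an unadjusted p under 0.05, beside 2.24% of all probe sets, and their smallest limma adjusted p was 1.00. That 1 was Dyrk1a probe set 1426226_at, with 0.24 (unadjusted p = 0.048), while the brighter Dyrk1a probe set 1451977_at differed by −0.13. Of the 15 listed genes of calcium entry and calmodulin 11 were measured, 10 had a mean below 0, the median was −0.04, and 0 had an unadjusted p under 0.05. The same median was 0.01 in clones 1 and 3 and −0.12 in clone 2.

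The list of other substrates of calcineurin and their families held Mef2b, a MADS-box factor. It had 6.86, 6.94 and 6.71 in induced clones 1, 2 and 3, against 7.52, 7.24 and 7.09 in the uninduced clones, so all induced clones lay below all uninduced ones. The difference was −0.45 (standard error 0.11, unadjusted p = 0.0043), and it was −0.18 on average in the other 18 experiments, with the same sign in 15. Crtc3, a coactivator of CREB, had 5.02, 5.01 and 4.94 induced, against 4.62, 4.91 and 4.71 uninduced, a difference of 0.24 (unadjusted p = 0.045) without overlap of the states. Of the 12 genes of this list, 1 was higher and 1 lower at that threshold, beside 1.25% and 0.993% of all probe sets. The list median was 0.03, and neither gene passed the adjustment over all probe sets (limma adjusted p = 1.00). Without clone 2 a second coactivator gene, Crtc2, was also higher, by 0.33 (clone 2 −0.34), beside 7.25% of all probe sets higher in that fit.

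Genes known as NFAT targets, largely from lymphocytes, bone and vessels, lay on both sides of 0. Of 29 measured, 15 were higher and 14 lower, and the median was 0.02 against 0.01 over all probe sets. Beside 2.24% of all probe sets, 1 had an unadjusted p under 0.05. That was Vegfa, the vascular growth factor, with 6.62, 6.70 and 6.14 in the induced clones, against 6.80, 6.96 and 6.33 in the uninduced ones (difference −0.21, unadjusted p = 0.0495). The states overlapped, although the induced array was the lower in each clone. The list median rested on clone 2: it was −0.01, 0.13 and −0.02 in clones 1, 2 and 3, and −0.06 without clone 2. In that fit the cyclin gene Ccnd1 was higher at the unadjusted threshold (0.28), and the early response genes Egr3 and Nr4a3 and the costimulatory receptor gene Tnfrsf9 were lower (−0.29 to −0.27), 1 and 3 of 29 beside 7.25% and 5.13% of all probe sets, while Vegfa was not among them. The median of 28 measured genes of VEGF signalling and angiogenesis, a process Rcan1 is known to restrain in endothelial cells, was 0.02. Beside 1.25% and 0.993% of all probe sets in the fit with all clones, 1 of them was higher and 1, Vegfa, lower at that threshold. The higher one was Esam, an endothelial adhesion molecule, with 6.58, 6.27 and 7.17 induced, against 6.17, 5.77 and 6.86 uninduced (difference 0.41, unadjusted p = 0.0036). It was higher in each clone, and it differed from the other inductions by 0.31 (unadjusted p = 0.016, limma adjusted p = 1.00). Without clone 2 the counts were 6 higher and 1 lower of 28, beside 7.25% and 5.13% of all probe sets. Esam was joined by Edn1, Nrp2, Thbs1, Timp3 and Vegfb at 0.25 to 0.36, none of these 5 higher in clone 2. The lower gene was the VEGF receptor gene Flt1 (−0.27, with 0.28 in clone 2) in place of Vegfa.

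The list whose median lay farthest from 0 was that of the amino acid response, the genes that ATF4 switches on when amino acids are short. Its 33 measured members had a median of −0.18 (−0.14, −0.22 and −0.15 in clones 1, 2 and 3), 30 were lower, and 21 were lower in all 3 clones, a share to be read beside 9.26% of all probe sets. At an unadjusted p under 0.05, 8 were lower and 0 higher, beside 0.993% of all probe sets lower, and 0 passed the adjusted threshold. Without clone 2 the count lower was again 8, beside 5.13% of all probe sets lower in that fit. The list was chosen with results of these data known, and other inductions had the same sign: its median was below 0 in 16 of the other 18 experiments (range −0.41 to 0.10), and in the contrast with those experiments 0 members passed the adjusted threshold and 1 had an unadjusted p under 0.05.

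That member was Vldlr, a lipoprotein receptor of the list and the gene with the lowest mean difference of all. Its brightest probe set had 5.56, 6.15 and 5.14 in induced clones 1, 2 and 3, against 6.39, 6.65 and 5.78 in the uninduced ones. The states overlapped, because clone 3 was low in both, but the induced array was lower by 0.83, 0.50 and 0.65 within clones 1, 2 and 3. The mean difference was −0.66 (standard error 0.10, unadjusted p = 4.32e-04, limma adjusted p = 1.00), against −0.13 on average in the other 18, and the contrast was −0.53 (unadjusted p = 0.0050). Among its 5 dimmer probe sets, 1417900_a_at differed by −0.53 and the other 4 by −0.22 to 0.07.

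Other members with a low p differed evenly over the clones, while 12 of the 33 were not on the same side of 0 in all clones. Nupr1, a stress-induced chromatin protein, had 8.24, 7.76 and 6.82 in the induced clones, against 8.63, 8.24 and 7.32 in the uninduced ones, a difference of −0.45 (unadjusted p = 0.0017) that its second probe set shared at −0.42. Chac1, which degrades glutathione, had 7.00, 8.12 and 6.67, against 7.40, 8.52 and 7.02, a difference of −0.38 (unadjusted p = 0.0038). Both have about the same difference in the mean of the other experiments, −0.33 and −0.37. Cebpb, Cth, Psph, Trib3 and Slc6a9 were the rest of the 8, between −0.36 and −0.22, and include enzymes of cysteine and serine synthesis. Asns, the asparagine synthetase that is the classical target of this response, was −0.16 (unadjusted p = 0.15), and Atf4 itself −0.08.

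The sequence that ATF4 and C/EBP factors bind together, searched as TTNCATCA on both strands, was found in the RefSeq promoters of 10 of the 29 list genes in the table. By promoter this was 10 of 35, or 28.6%, against 3.97% of all 32851 promoters. The list was drawn up as genes that ATF4 switches on, so this share follows from the choice and says nothing about the Dscr1 clones. The NFAT target list, with a median difference of 0.02, likewise held GGAAA in 81.8% of its 33 promoters, against 61.3% of all. The ATF4 site is shown in capitals for the 3 members with the lowest mean differences that hold it, as the feature they share. Coordinates are of GRCm38.p6 and each line reads 5′ to 3′ along the gene, Nupr1 on the minus strand and the others on the plus strand.

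Vldlr at chr19:27216809-27216838: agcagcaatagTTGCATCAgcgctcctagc
Nupr1 at chr7:126625562-126625591: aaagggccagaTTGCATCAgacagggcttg
Chac1 at chr2:119351038-119351067: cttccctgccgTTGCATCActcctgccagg

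**Figure D4:**
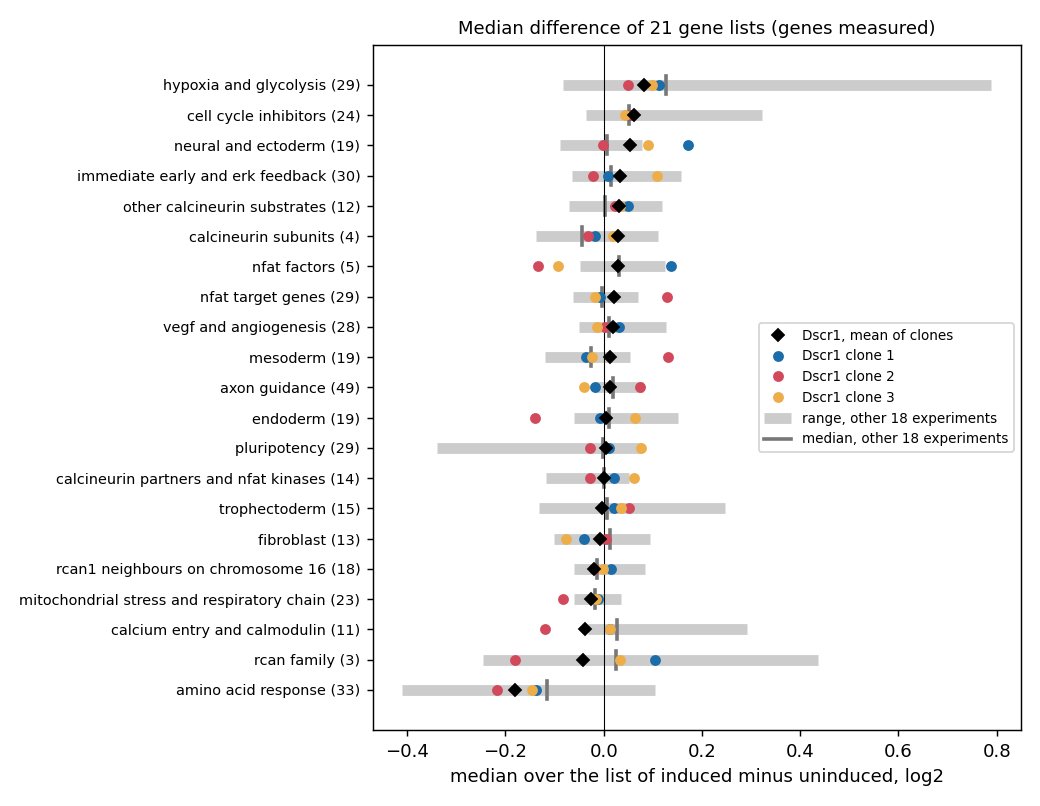
Median over each list of the difference (induced minus uninduced, log2, horizontal axis), with the number of genes measured beside its name; diamonds are the Dscr1 means, coloured points the 3 clones, grey bars and ticks the range and median of the other 18 experiments. The amino acid response lies lowest at −0.18 and hypoxia and glycolysis highest at 0.08, both within the range of the others.

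Genes of hypoxia and glycolysis lay on the other side. Of 29 measured, 24 were higher, 13 of them in all 3 clones (beside 10.4% of all probe sets), with a median of 0.08 (0.11, 0.05 and 0.10 in clones 1, 2 and 3). At an unadjusted p under 0.05, 4 were higher and 0 lower, beside 1.25% of all probe sets higher, and without clone 2 the count higher was 5, beside 7.25% of all probe sets. With the spread shared over experiments 2 of 29 were higher and 0 lower at an unadjusted p under 0.05, beside 3.52% of all probe sets in either direction. The median was above 0 in 17 of the other 18 experiments, up to 0.79, and 0 members differed from those experiments at the adjusted threshold. The median contrast of the members with those experiments was −0.08. Vegfa, lower by the −0.21 given above, was not a member of this list.

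Ankrd37, an ankyrin repeat protein that HIF induces, had 6.80, 7.07 and 6.09 in induced clones 1, 2 and 3, against 6.23, 6.62 and 5.41 in the uninduced clones, a difference of 0.56 (standard error 0.09, unadjusted p = 7.09e-04). The states overlapped between clones, but each clone was higher when induced, and so were the means of 18 of the other 18 experiments. Egln3, a prolyl hydroxylase that marks HIF for degradation, differed by 0.49, Ndufa4l2, which lowers respiration in hypoxia, by 0.47, and Bnip3, a mitophagy receptor, by 0.27. Their levels varied more between clones than between states: Ndufa4l2 had 7.76, 10.06 and 6.41 induced, against 7.36, 9.41 and 6.05 uninduced. Other members did not share this, since Slc2a3 and Hk2 differed by −0.02 and −0.01, and Adm by −0.09. For Adm the contrast with the other inductions was −0.37 (unadjusted p = 0.016, limma adjusted p = 1.00).

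The hypoxia response element, searched as TACGTG on both strands, occurred in 9 of 40 promoters of this list (22.5%), against 3.23% of all promoters. A list of hypoxia genes is likely to hold this element by its choice, so the share says nothing about the Dscr1 clones. The element is printed for Ankrd37, the member with the largest difference, whose gene lies on the minus strand and whose promoter holds it in 2 places.

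Ankrd37 at chr8:46000071-46000100: cccagcagTACGTGcctagctcggctcgca
Ankrd37 at chr8:45999840-45999869: tcagtgtttgggTACGTGaggccgcagcgg

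**Figure D5:**
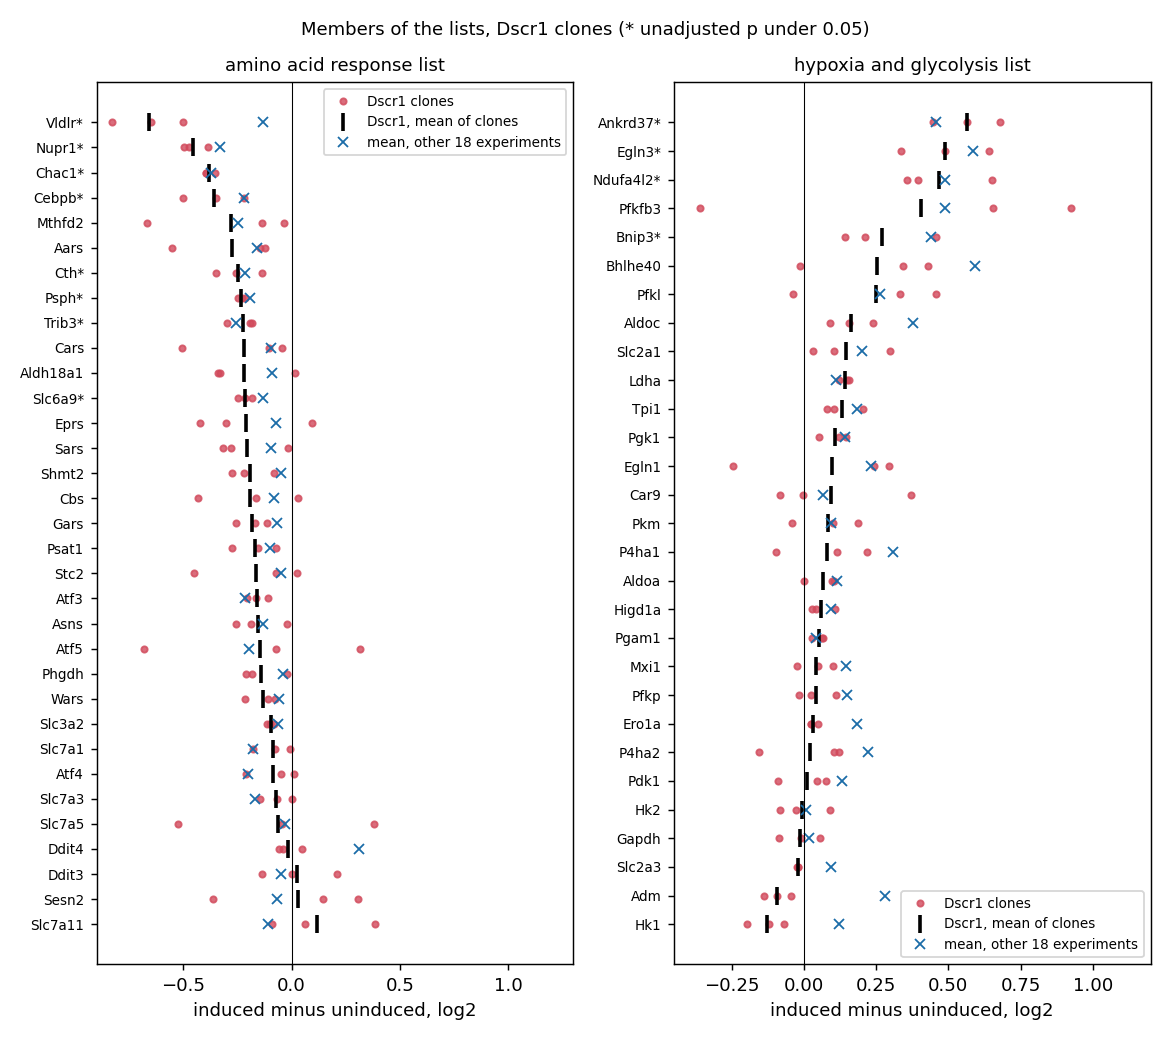
Difference in each Dscr1 clone (red points), their mean (black ticks) and the mean of the other 18 experiments (blue crosses) for the members of the amino acid response (left) and the hypoxia and glycolysis list (right), in log2 on the horizontal axes; asterisks mark an unadjusted p under 0.05. The 8 marked members on the left lie below 0 and the 4 on the right above 0 in every clone, with the crosses on the same side.

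The named genes besides these were chosen by size and by the same sign in all clones, from the 410 probe sets that met the rule, so their directions are fixed by the choice. None but Rcan1 passed an adjusted threshold in any of the 3 fits. Tfrc, the transferrin receptor that brings iron into the cell, was measured by 6 probe sets, and all 6 were higher in all 3 clones, by 0.38 to 0.50, each at an unadjusted p under 0.05. Its brightest, 1452661_at, had 11.27, 11.20 and 11.45 induced, against 10.87, 10.86 and 11.06 uninduced, so the states did not overlap. The difference was 0.38 (unadjusted p = 0.0041), and the contrast of 0.14 had an unadjusted p of 0.11. This probe set was higher in 17 of the other 18 experiments as well, but the other Tfrc probe sets in only 9 to 14 of them. With the spread shared over experiments, 1452661_at had an unadjusted limma p of 2.73e-05 and the other Tfrc probe sets 0.058 to 0.20. All of them read 1 gene on the same arrays, so they are not separate support.

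Sox11, a transcription factor of early neural cells, had 5.73, 6.26 and 7.48 in the induced clones, against 5.04, 5.48 and 7.11 in the uninduced ones. The difference was 0.61 (unadjusted p = 0.0011), with 0.43 on average in the other 18, and the other 5 Sox11 probe sets differed by 0.06 to 0.31. The secreted fibronectin-domain protein gene Fndc4 had 6.29, 6.03 and 6.89, against 5.79, 5.70 and 6.17, a difference of 0.52 with 0.07 on average in the others (contrast 0.45, unadjusted p = 0.0060). Plod2, a collagen lysyl hydroxylase, differed by 0.50, but by 0.01 in clone 2, and its brighter probe set by 0.21. Enpp3, Mirg, Scp2 and Sike1 completed the higher genes at 0.45 to 0.51, and the brighter probe sets of the same genes differed by −0.03 to 0.09 for Scp2 and Sike1, by 0.08 for Mirg and by 0.13 and 0.18 for Enpp3, with clone 2 below 0 for Mirg and Enpp3.

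Among the lower genes Jdp2, a repressor of the AP-1 family, had 6.60, 7.48 and 6.04 in induced clones 1, 2 and 3, against 7.23, 8.02 and 6.66 in the uninduced clones. It differed by −0.59 (standard error 0.09, unadjusted p = 3.54e-04), evenly at −0.62, −0.54 and −0.63, and by −0.31 on average in the other 18. With Rcan1 and Vldlr it was 1 of the 3 probe sets that differed by at least 0.5 in the same direction in all clones. The dimmer Jdp2 probe set 1424972_at went the other way, by 0.26 (0.00, 0.58 and 0.22 in clones 1, 2 and 3). Gpt2, the mitochondrial alanine transaminase, had 8.18, 8.38 and 7.96, against 8.80, 8.76 and 8.54, with no overlap, and its 4 probe sets lay between −0.52 and −0.33. Niban1, a stress-response gene, differed by −0.40 and −0.36 at its 2 probe sets, 1454942_at and 1422567_at. For 1454942_at the contrast was −0.44 (unadjusted p = 5.15e-05, limma adjusted p = 0.51). Its mean difference in the other 18 was 0.04, although it was lower in 12 of them, with the highest at 1.05. Hr, a histone demethylase of hair follicles, gave −0.41 with a contrast of −0.43 (unadjusted p = 1.33e-04, limma adjusted p = 0.60), but its brighter probe set 1435950_at differed by 0.05. Tmcc2, Map3k9, Srr, Pxylp1 and Mindy2 were the others, at −0.54 to −0.40, and the brighter probe sets of Tmcc2, Srr and Pxylp1 differed by −0.15, 0.01 and −0.28.

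Closest to the adjusted threshold in the contrast with the other inductions after Rcan1 was Fezf2, a forebrain zinc finger factor, named after its values were seen. It had 3.91, 3.53 and 3.76 in the induced clones, against 3.36, 3.11 and 3.41 in the uninduced ones, without overlap but at levels below the median of the arrays. The contrast was 0.49 (standard error 0.09, limma adjusted p = 0.051), and the mean of the other experiments was −0.06.

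Few markers of cell state reached an unadjusted p under 0.05. Of 29 measured pluripotency genes 15 were higher and 14 lower, with a median of 0.00, and 1 had an unadjusted p under 0.05: Lefty2, an antagonist of Nodal, with 7.76, 8.04 and 7.56 induced, against 7.40, 7.88 and 7.07 uninduced (difference 0.34, unadjusted p = 0.014), and with 0.36 on average in the other 18. Of 19 neural and ectoderm genes 3 were higher at that threshold and 0 lower, beside 1.25% of all probe sets higher. Otx2, a forebrain and epiblast factor, had 6.91, 6.92 and 4.75 induced, against 6.41, 6.73 and 4.13 uninduced, and differed by 0.44 (unadjusted p = 0.0071). The neural progenitor factor Sox3 and the neurofilament gene Nefl differed by 0.41 and 0.32, but by −0.01 each in clone 2. Of 19 mesoderm genes 1 was higher, Eomes by 0.31, and of 19 endoderm, 15 trophectoderm and 13 fibroblast genes 0 had an unadjusted p under 0.05. Without clone 2, beside 7.25% of all probe sets higher, the counts higher were 3 of the pluripotency genes (with Lin28a and Dppa3), 5 of the neural genes (with Neurod1 and Sox11), 3 of the endoderm genes (Foxa2, Gata6 and Cubn, at 0.33 to 0.56) and 2 of the trophectoderm genes (Gata3 and Tead4, at 0.36 and 0.32), and 1 and 0 of the mesoderm and fibroblast genes. All of these but Lefty2, Otx2 and Eomes were below 0 in clone 2. In a bulk sample, fewer cells of a type and less RNA per cell cannot be told apart.

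The remaining lists held few such genes, to be read beside 1.25% of all probe sets higher and 0.993% lower. Axon guidance is a term that the study listed for Dscr1 from these arrays, so its genes are not independent evidence. Of 49 measured, 30 were higher and 19 lower with a median of 0.01, and 1 was higher, the growth cone protein gene Dpysl2 (0.22), and 1 lower, the repellent ligand gene Slit2 (−0.25), at an unadjusted p under 0.05. The cell cycle inhibitor list had 1 of 24 at that threshold (Gadd45g, 0.24; clones 0.33, 0.31 and 0.07). The immediate early and ERK feedback list had 1 of 30, the TGF-beta-induced repressor gene Klf10 at 0.23. The mitochondrial list had 0 of 23, with Fgf21, a stress hormone, closest at −0.22 (unadjusted p = 0.0501). Of the 18 neighbours of Rcan1 on mouse chromosome 16, 0 had an unadjusted p under 0.05, the closest being Cryzl1 at −0.24, and their median was −0.02, while without clone 2 Cryzl1, Runx1 and Kcne1 were lower, at −0.34, −0.27 and −0.24. In the fit without clone 2, 7.25% of all probe sets were higher and 5.13% lower at that threshold. Beside these shares the axon guidance list had 4 of 49 higher (Epha1, Ephb4, Gap43 and Nrp2) and 4 lower (Ntn4, Sema3f, Sema5a and Unc5c). Neither Dpysl2 nor Slit2 was among them. The cell cycle inhibitor list then had 3 of 24 higher (Rbl2, Pmaip1 and Cdkn1c), without Gadd45g, and the mitochondrial list had Fgf21 lower. The immediate early list had 4 of 30 higher and 1 lower, of which the ERK inhibitor gene Spry4 differed most, by 0.70 (clone 2 −0.17). In all, 25 of the 417 distinct list genes measured (6%, beside 2.24% of all probe sets) had an unadjusted p under 0.05, 14 higher (3.36%, beside 1.25%) and 11 lower (2.64%, beside 0.993%), and 0 passed the adjusted threshold in limma. Without clone 2 they numbered 61 (14.6%, beside 12.4%), 39 higher (9.35%, beside 7.25%) and 22 lower (5.28%, beside 5.13%).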

How the data were processed

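Each array measured total RNA of 1 clone on the Mouse 430_2 array. The deposited table holds log2 expression values, which the authors obtained by RMA (robust multi-array average, affy package) from the arrays of each gene together. Of 45101 probe sets, 34958 have 1 gene in the platform annotation, 932 several and 9211 none, and the last 2 kinds are not named. Limma 3.58.1 in R 4.3.3 fitted induced minus uninduced with the clone as a block, with Benjamini-Hochberg adjustment over all probe sets. A second fit used the clone differences of 57 clones in 19 experiments (45100 probe sets complete), which share 1 spread, and also gave the Dscr1 clones minus the mean of the other 18. Of the 19 experiments, 14 were induced for 24 hours and the rest for 39 or 48. The labels number the clones in both states; as deviations from their state's mean, arrays of a number correlated at 0.59, 0.35 and 0.61, so the numbers were taken as pairs. Nothing in the labels describes separate cultures of a clone. In the fits with the clone as a block or with clone differences, p-values measure how the difference varies between clones, and not how their levels vary. Each difference comes from 1 array in each state, so variation of culture and array is part of that spread. The number of arrays limits the precision.

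Members of the 21 lists (426 of 448 entries measured) were taken at the probe set with the highest mean level. Members and lists were chosen with earlier results of these data known. Named genes are the calcineurin and NFAT lists, the 12 with the largest difference in each direction among probe sets of 1 gene with the same sign in 3 clones, an unadjusted p under 0.05 and a level in the higher state at or above the median of all probe sets (5.00), those called in the shared fits, and for other lists the 2 lowest p or any called. The alternatives are given in the last section. The fits were tested on simulated data.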

Additional observations from a re-analysis of the deposited data

Results flagged for a closer look

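One result met a rule for a closer look. Rcan1 probe set 1416601_a_at differed by 2.14 in the Dscr1 clones, and by 0.03 on average in the other 18 experiments on the same array. The test of the difference itself gave 2.11 on the log2 scale (95% interval 1.79 to 2.43, limma adjusted p = 1.78e-12), with all 3 Dscr1 clones above every clone of the others. Groups of 3 arrays are too small for a check of single outlying samples.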

How the results depend on the processing

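The direction of Rcan1 probe set 1416601_a_at held in every fit run. Its difference of 2.14 was past the adjusted threshold of 0.05 in the Cyber-t-like test between states (adjusted p = 1.07e-04), in that test within clones (0.0016), with trend and robust moderation (0.023) and without clone 2 (0.0055); these fits called 1 probe set, and the others 0 (adjusted p of Rcan1 from 0.105 to 1.00). Leaving out a clone gave 0 to 1 calls and 1.88 to 2.36 for Rcan1, and −0.084 to 0.027 for 1416600_a_at. Probe sets at an unadjusted p under 0.05, 1011 in all, numbered 382 without the replicate block, 553 in the Cyber-t-like test between states, 496 without dim probe sets and 438 to 5583 without 1 clone, the most without clone 2. List genes at that threshold, 25 in all, numbered 5 without the replicate block, 3 and 39 in the Cyber-t-like tests between states and within clones, 6 in the methods' t-test, 42 with trend and robust moderation and 12 to 61 without 1 clone. Of the 24 named genes 7, 12 and 4 stayed under it without the block, in the Cyber-t-like test between states and in the methods' t-test. With the spread shared, 1 probe set was called in each fit, but 2 without clone 3 (Rcan1 and P2ry1); without 1 clone the range was 1 to 2, and the contrast with the other inductions called 1 in every fit. The cause of these changes was not tested. Raising the adjusted threshold to 0.1 or 0.25 gave 0 calls. Of 147 list medians under the alternatives, 129 moved by less than the SD of the clones, and the other 18 were in 7 lists: angiogenesis, cell cycle inhibitors, other substrates and subunits of calcineurin, trophectoderm, fibroblast and the neighbours of Rcan1. For a typical probe set, the unadjusted 95% interval of the 6-array fit reached about 0.24 to either side of the difference. The adjusted threshold asks for more, since Rcan1 at 2.14 did not pass it in that fit.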
